A study of Mus musculus with 3 samples.

Results

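The Igf2, H19 and Plagl1 growth axis was followed in mouse embryonic stem (ES) cells that lacked Tet1 and in wild type cells. It comprised 9 genes of the 27670 gene names on the arrays: the growth factor Igf2, its neighbour H19, the regulator Plagl1, the receptors Igf2r, Igf1r and Insr, and the RNA-binding proteins Igf2bp1, Igf2bp2 and Igf2bp3. A probe belonged to one of them if its name, its accession or an older synonym led to that gene, which gave 20 of 41174 probes on 29 spots, 3 of the probes through a synonym. The genes were chosen with the knockout values of these same arrays known, Igf2 and Plagl1 for their large differences from wild type. Their differences between knockout and wild type are therefore a description, with no test.

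Tet1 KO 4 and Tet1 KO 22 were the 2 knockout samples, and Tet1 WT was the single wild type sample. All were V6.5 ES cells with a mixed 129 and C57BL6 background, cultured with LIF on irradiated feeder cells and preplated, a step that lets feeder cells attach first, before total RNA was taken. The labels do not say whether KO 4 and KO 22 were separate clones or cultures, the short design text speaks of mice, and the sources used here do not describe how Tet1 was disrupted. With 1 wild type array, the spread of wild type cells was not measured.

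Igf2 and H19 are adjacent imprinted genes: Igf2 is transcribed mainly from the paternal copy and H19, a long non-coding RNA, from the maternal copy. A methylated control region between them decides which gene can use shared enhancers. Plagl1, also called Zac1, is a paternally expressed zinc-finger transcription factor that in mouse binds those enhancers and several other imprinted genes. The Igf2 protein signals through Igf1r and Insr and is cleared by Igf2r, and Igf2bp proteins bind Igf2 and many other mRNAs. Tet1 oxidises methylated cytosine in CpG dinucleotides.

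Because Tet1 acts on CpG, promoter sequences of the genes with the largest differences are given with every CpG in capitals. RefSeq's table for build GRCm38.p6 held 300-base windows around the start sites of 6 of the 9 genes, 9 windows in all, against 32851 windows over all genes with a median of 7 CpG. The Plagl1 window (chr10:13090582-13090881, plus strand) held 26 CpG. The 4 Igf2 windows, all on the minus strand, held 2, 14, 24 and 7 CpG from the most upstream start to the most downstream one. Printed are the poorest (chr7:142666767-142667066) and the richest (chr7:142658755-142659054), 5′ to 3′ on the gene's strand.
Plagl1: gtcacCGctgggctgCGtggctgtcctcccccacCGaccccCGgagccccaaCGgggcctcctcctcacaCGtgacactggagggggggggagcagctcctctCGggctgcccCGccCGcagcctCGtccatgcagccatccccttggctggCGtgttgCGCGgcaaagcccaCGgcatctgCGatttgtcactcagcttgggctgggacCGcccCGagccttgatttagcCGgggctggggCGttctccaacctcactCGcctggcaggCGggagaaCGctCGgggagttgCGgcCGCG
Igf2 start 1: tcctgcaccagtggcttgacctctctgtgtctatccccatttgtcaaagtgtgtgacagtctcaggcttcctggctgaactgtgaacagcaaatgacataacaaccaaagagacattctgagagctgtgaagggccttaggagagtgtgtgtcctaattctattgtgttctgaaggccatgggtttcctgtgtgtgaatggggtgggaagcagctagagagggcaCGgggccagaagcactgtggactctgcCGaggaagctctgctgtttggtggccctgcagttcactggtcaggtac
Igf2 start 3: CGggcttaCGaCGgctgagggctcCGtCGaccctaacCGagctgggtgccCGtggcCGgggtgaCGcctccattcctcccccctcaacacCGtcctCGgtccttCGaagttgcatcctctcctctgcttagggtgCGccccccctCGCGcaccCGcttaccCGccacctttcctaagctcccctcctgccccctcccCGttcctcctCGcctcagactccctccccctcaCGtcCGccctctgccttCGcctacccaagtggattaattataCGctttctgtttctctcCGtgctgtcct
The windows of Igf2r, Igf1r, Igf2bp2 and Igf2bp3 held 34, 48, 47 and 25 CpG. The letters GGGGCCCC, which read the same on both strands and resemble sites that Plagl1 binds, were in 0 of the 9 windows and in 354 of all 32851 (1.08%). Methylation was not measured, and the arrays do not tell the Igf2 starts apart.

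H19 and Igf2 also host microRNAs, shown here because their seeds (bases 2 to 8, in capitals) decide which mRNAs they pair with. No probe on the arrays was named for them, so their levels were not analysed here. The sequences are RefSeq's, and the 4 seeds all differ.
mmu-miR-675-5p, in H19: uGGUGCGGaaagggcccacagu
mmu-miR-675-3p, in H19: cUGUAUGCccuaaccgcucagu
mmu-miR-483-5p, in Igf2: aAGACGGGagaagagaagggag
mmu-miR-483-3p, in Igf2: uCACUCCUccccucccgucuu

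The arrays were alike in brightness. Each had 43379 non-control spots, of which 62.5% on KO 4, 62.8% on KO 22 and 62.2% on WT were well above background and 0 were saturated, and all lay on 1 slide from 1 scan run. Levels below are processed intensities in scanner units. Differences are log2 values after each array was scaled to its 75th percentile (717.7 on KO 4, 644.9 on KO 22 and 623.7 on WT), knockout minus wild type, and each SD is over the 2 knockout arrays. Tet1 itself read 214 on KO 4, 195 on KO 22 and 721 on WT, a mean difference of -1.94 (3.85-fold lower), in the direction of the labels. The labels do not place that probe relative to the disrupted part of the gene.

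Igf2 RNA was several times higher in both knockout samples. Its brighter probe (A_51_P516826, chr7:139078075-139078135 on build mm7) is printed on 10 spots and read 2304 on KO 4, 2302 on KO 22 and 455 on WT. The difference was 2.14 on KO 4 and 2.29 on KO 22, with a mean of 2.21 ± 0.11 (SD, n = 2 knockout arrays), or 4.64-fold higher. The second probe (A_51_P516833, chr7:139078490-139078549) read 587 on KO 4, 616 on KO 22 and 110 on WT, a mean difference of 2.33 ± 0.16 (SD, n = 2), or 5.02-fold. Both probes thus put both knockout arrays far above wild type and close to each other. Among the 16401 genes that were well above background on all arrays, Igf2 had the 4th highest mean difference.

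The repeated spots show how far the measurement itself spread. The 10 spots ran between 2167 and 2410 on KO 4, between 2094 and 2413 on KO 22 and between 412 and 471 on WT. In these scanner units, before the arrays were scaled, the KO 4 and KO 22 spots overlapped almost fully. No knockout spot came near a wild type one. After scaling, the log2 value of the probe on KO 4 minus that on KO 22 was -0.15, so the overlap is one of unscaled intensities. Over the spots used, the coefficient of variation was 3.11% on KO 4, 2.62% on KO 22 and 3.01% on WT, after 1, 2 and 2 spots were left out as outliers by the scanner software. On KO 4, 5 spots that were bright on that array alone lay within 2 rows and columns of an Igf2 spot. These spots repeat 1 hybridisation and are not replicates of a condition.

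**Figure D1:**
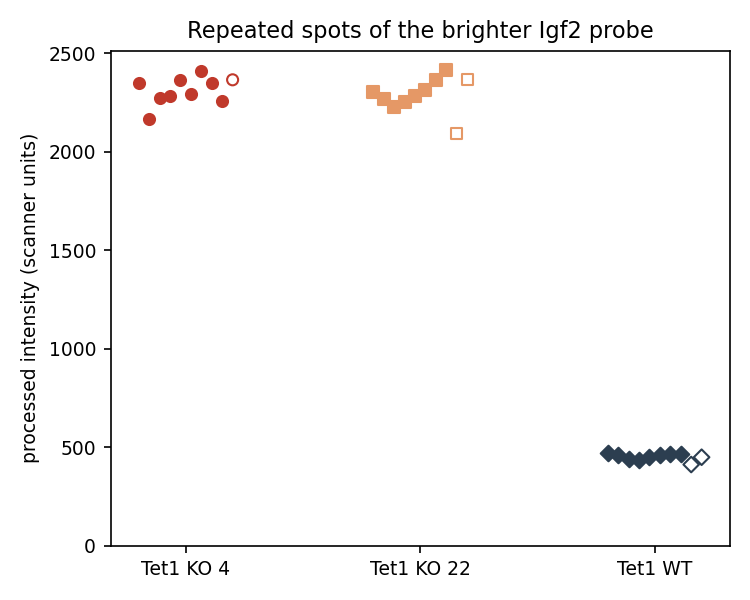
Processed intensity (scanner units, linear axis from 0) of the 10 spots of the brighter Igf2 probe on Tet1 KO 4, Tet1 KO 22 and Tet1 WT, with open symbols for spots flagged as outliers by the scanner software. The lowest spot is at 2167 on KO 4 and at 2094 on KO 22, and the WT spots lie between 412 and 471.

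H19, the non-coding neighbour, was lower in the knockout samples, and there the knockout arrays differed from each other. The brighter probe (A_51_P142196, chr7:139003144-139003203) read 213 on KO 4, 106 on KO 22 and 427 on WT. Its difference was -1.21 on KO 4 and -2.05 on KO 22, a mean of -1.63 ± 0.60 (SD, n = 2), or 3.09-fold lower. The second probe (A_52_P571350, chr7:139003393-139003540) read 80.1 on KO 4, 52.7 on KO 22 and 168 on WT, with a mean difference of -1.50 ± 0.32 (SD, n = 2), or 2.83-fold lower. On both probes WT was highest, KO 4 intermediate and KO 22 lowest. KO 4 exceeded KO 22 by 0.85 on the first probe and by 0.45 on the second, where the SD of this gap over all 17709 genes tested was 0.33. For 1.87% of genes the gap was at least as wide as on the first H19 probe. With 1 array of each, the gap has no test.

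Plagl1 had the widest difference of the 9 genes. Its brighter probe (A_52_P532456, chr10:12831831-12831890) read 81.3 on KO 4, 69.3 on KO 22 and 791 on WT. The difference was -3.49 on KO 4 and -3.56 on KO 22, a mean of -3.52 ± 0.05 (SD, n = 2), or 11.5-fold lower. This was the 4th lowest mean difference among the genes above background on all arrays. The dimmer probe (A_51_P432034, chr10:12830021-12830080) read 3.22 on KO 4 and 2.98 on KO 22, neither well above background, and 15.0 on WT. It gave only a bound, at least 1.55-fold lower, measured from the lowest signal that was well above background on each knockout array. Both probes had WT on top and the knockout arrays together below it.

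**Figure D2:**
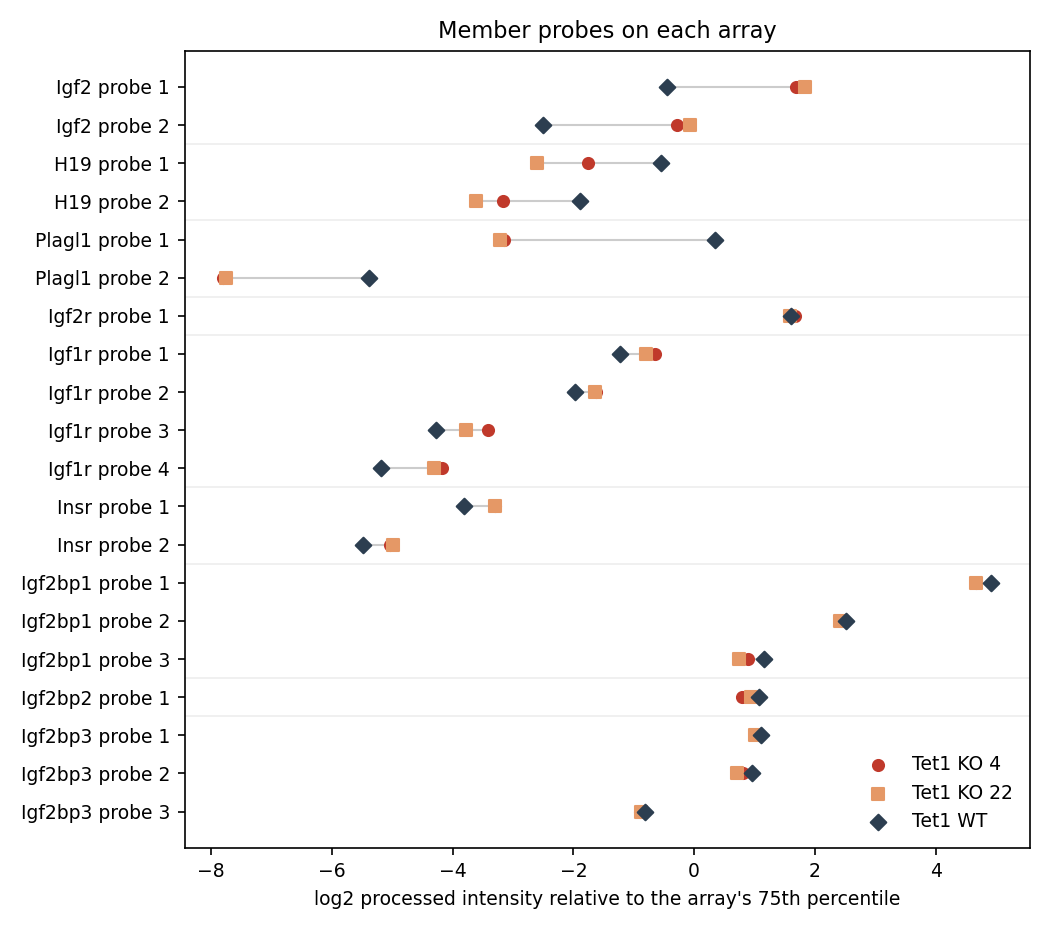
Level of each of the 20 probes on Tet1 KO 4 (circles), Tet1 KO 22 (squares) and Tet1 WT (diamonds), as log2 processed intensity relative to the array's 75th percentile, 1 row a probe, so that rows are read across arrays and not against each other. Both Igf2 probes lie right of WT on the knockout arrays and both H19 and Plagl1 probes left of it, while the Igf2r and Igf2bp symbols nearly coincide.

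The receptors had small differences. Igf2r, the mannose 6-phosphate receptor that delivers Igf2 to lysosomes, has 1 probe (chr17:11399590-11399648), which read 2293 on KO 4, 1948 on KO 22 and 1899 on WT. Its difference was 0.07 on KO 4 and -0.01 on KO 22, so the knockout arrays fell on either side of wild type.

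Igf1r, the tyrosine kinase receptor through which Igf1 and Igf2 drive growth, was read by 4 probes, all higher on both knockout arrays. The brightest (A_51_P474538, named through a synonym) read 458 on KO 4, 371 on KO 22 and 267 on WT, a mean difference of 0.50 ± 0.11 (SD, n = 2), or 1.42-fold. The dimmest (A_52_P668647) read 39.9 on KO 4, 32.6 on KO 22 and 17.0 on WT, a mean difference of 0.96, or 1.94-fold. The other 2 probes had mean differences of 0.33 and 0.68. The 4 probes shared a direction and differed in size. With a normexp background correction fitted on all spots, these values were 0.05 for the brightest probe, -1.65 for the dimmest, and -0.50 and -1.45 for the others. With 8 spots that were dimmer than their local background left out of that correction, they were 0.42 for the brightest and 0.20 for each of the rest.

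Insr, the insulin receptor, which also binds Igf2 in its shorter isoform, was read by 2 dim probes. The brighter one read 72.6 on KO 4, 65.4 on KO 22 and 44.2 on WT, with differences of 0.51 on KO 4 and 0.52 on KO 22, or 1.43-fold for the mean. The other read 21.8 on KO 4, 20.4 on KO 22 and 13.97 on WT, a mean difference of 0.47. Both knockout arrays lay above wild type on each probe. The direction depended on the background correction, since normexp on all spots gave -1.24 and -1.91, and without the 8 dim spots 0.20 and 0.01.

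The Igf2bp genes, which encode proteins that bind Igf2 mRNA and control its translation and stability, had values close to wild type. The brightest Igf2bp1 probe (A_51_P497113) read 18177 on KO 4, 16335 on KO 22 and 18920 on WT, a difference of -0.26 on each knockout array. The other Igf2bp1 probes had mean differences of -0.06 and -0.34. Igf2bp2 has 1 probe, which read 1251 on KO 4, 1245 on KO 22 and 1318 on WT, a mean difference of -0.20 ± 0.10 (SD, n = 2). The 3 Igf2bp3 probes had mean differences of -0.06, -0.19 and -0.08, and the brightest read 1521 on KO 4, 1300 on KO 22 and 1349 on WT. All 7 probes of the family were below wild type on both knockout arrays after scaling. With normexp on all spots the value of the brightest probe changed sign, to 0.31 for Igf2bp1, 0.09 for Igf2bp2 and 0.20 for Igf2bp3.

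All 9 genes entered the fit over 17709 genes, each by its brightest probe, and 19 of the 20 probes were well above background on all arrays. Igf2, Igf1r and Insr were higher on both knockout arrays, H19, Plagl1 and the 3 Igf2bp genes were lower on both, and Igf2r was mixed. That is 3 higher and 5 lower, where over all genes 38% were higher and 45.5% lower on both. A difference of at least 2-fold on both arrays was found for Igf2 among the higher and for H19 and Plagl1 among the lower ones, against 1.45% of all genes higher and 1.56% lower by that much. In limma's moderated test with Benjamini-Hochberg adjustment, 0 of the 9 were called higher and 1, Plagl1, lower, where 0.0339% of all genes were called higher and 0.322% lower. Since the genes were picked from this contrast, nothing is read from these counts. Tet1 itself, 3.85-fold lower, was not called either, so a missing call does not show a lack of change. The median difference of the 9 genes was -0.06 and that of all genes -0.03.

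**Figure D3:**
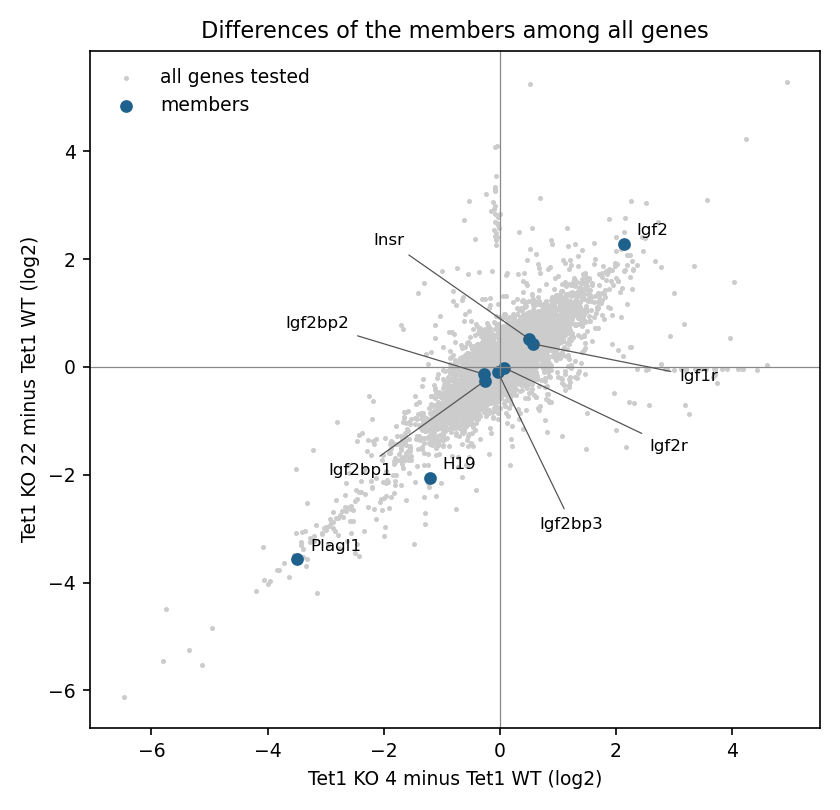
Log2 difference from Tet1 WT on Tet1 KO 4 (horizontal axis) and on Tet1 KO 22 (vertical axis) for 17709 genes (grey) and the 9 genes of the axis (blue), 1 point a gene; both axes share the WT array. Igf2 lies at 2.14 and 2.29, Plagl1 at -3.49 and -3.56 and H19 at -1.21 and -2.05, with the other 6 near the centre.

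Around Igf2 and H19, differences did not run in 1 direction along the chromosome. Of 62 probes within 900 kb of the brighter Igf2 probe, 43 were above background on all arrays. On both knockout arrays 3 of these exceeded wild type by 2-fold or more, the 2 Igf2 probes and that of Tnni2, a fast skeletal muscle troponin gene on the H19 side (at -206 kb). As far below wild type were 3, the 2 H19 probes and 1 of the 2 for Ins2, an insulin gene on the other side of Igf2 (at 28 kb). Tnni2 read 295 on KO 4, 192 on KO 22 and 78.1 on WT. The first Ins2 probe read 28.7 on KO 4, 27.1 on KO 22 and 60.6 on WT, a mean difference of -1.25, and the second had -0.96. Igf2 thus stood between neighbours with the opposite sign, H19 at -74.9 kb and Ins2 at 28 kb. Mrpl23, a mitochondrial ribosomal protein gene just beyond H19, had a difference of 0.13.

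**Figure D4:**
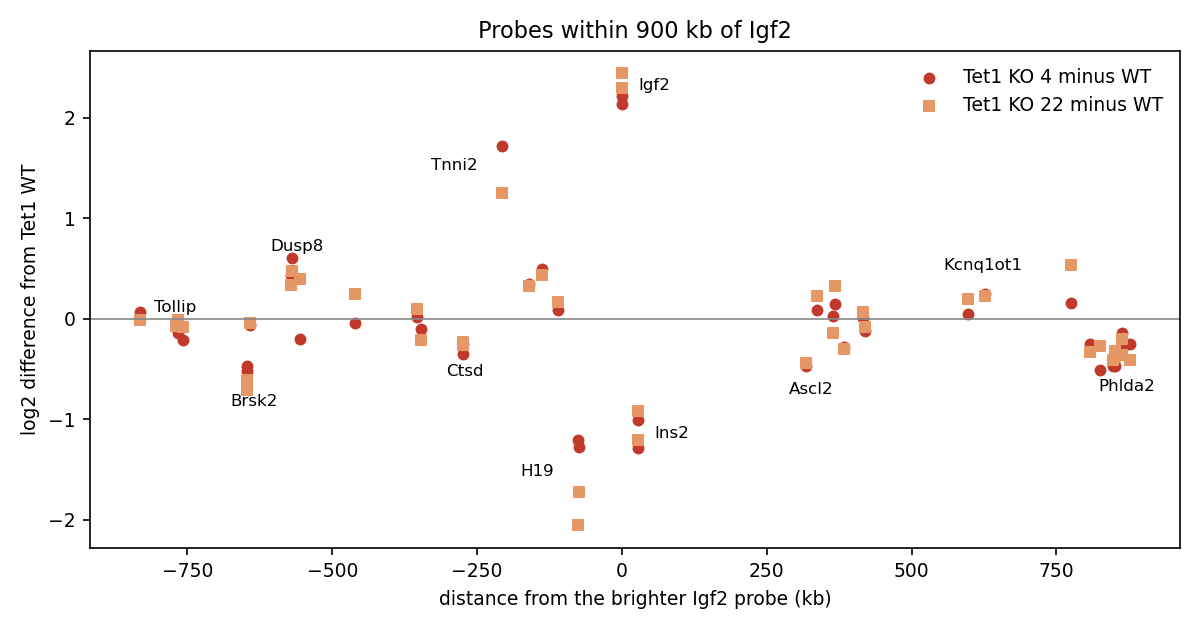
Log2 difference from Tet1 WT of Tet1 KO 4 (circles) and Tet1 KO 22 (squares) for the 43 probes above background on all arrays within 900 kb of Igf2, against distance in kb from the brighter Igf2 probe, with negative distances on the H19 side. Igf2 and Tnni2 stand at the top, H19 and Ins2 at the bottom, and most other probes lie near 0.

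Of 119 other genes in 5 lists of the axis, 108 were tested and limma called 0 of them, against 0.356% of all genes. At an unadjusted p below 0.05, 20 of the 108 were higher and 18 lower, beside 13.2% of all genes higher and 15% lower. With an intensity trend in the variance model, 15 were called higher and 13 lower, beside 8.31% of all genes higher and 10.7% lower. The median difference over the 108 genes was -0.02, beside -0.03 for all genes. Higher on both knockout arrays were 49 and lower on both 48. At least 2-fold on both arrays were only Tnni2, higher, and Igfbp5, lower.

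In the IGF and insulin pathway, 41 of 44 genes were tested, with 19 higher and 16 lower on both knockout arrays, 0 called, and a median of -0.00. Igfbp5, a secreted IGF-binding protein, read 19.8 on KO 4, 18.9 on KO 22 and 37.6 on WT, a difference of -1.09 (limma adjusted p = 0.0971). Grb10, an imprinted adaptor that damps signalling from Igf1r and Insr, read 10371 on KO 4, 8254 on KO 22 and 14909 on WT, a difference of -0.81. Irs1, a docking protein that carries the receptor signal to PI3-kinase, had 555 on KO 4, 402 on KO 22 and 249 on WT, a difference of 0.80. Both knockout arrays were on the same side of wild type for each of these genes and for Ins2. None of them passed the adjusted test, in which the smallest adjusted p among these 4 was 0.0971.

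Among neighbours of Igf2 and H19 and the factors that bind their control region, 17 of 21 genes were tested, with 9 higher and 8 lower on both arrays, 0 called, and a median of 0.04. Besides Tnni2 at 1.48, the widest differences among those above background on all arrays were 0.46 for Tnnt3, a troponin T gene of the same region, -0.45 for Ascl2, a trophoblast transcription factor, and -0.44 for the transporter gene Slc22a18. Among 12 relatives, partners, targets and neighbours of Plagl1, 5 were higher and 7 lower on both arrays, 0 were called, and the median was -0.17. Phactr2, a neighbour of Plagl1 on the chromosome, had 0.82 and read 396 on KO 4, 395 on KO 22 and 206 on WT. Adcyap1r1, the receptor gene that Plagl1 was found to induce, had -0.51, Ltv1 had -0.39, and the family member Plagl2 had 0.31.

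Other imprinted genes lay on both sides of wild type, and 0 were called. Of 23, 20 were tested, with 8 higher and 9 lower on both arrays and a median of -0.06. Slc38a4, an amino acid transporter of placenta and liver, read 3030 on KO 4, 2893 on KO 22 and 1598 on WT, a difference of 0.76. Peg10, a retrotransposon-derived gene needed for the placenta, had 0.77 but 0.43 on KO 4 and 1.12 on KO 22, and Snrpn, a spliceosomal protein gene, had -0.52. Of 21 genes on the let-7, Lin28 and Igf2bp side of the axis, 20 were tested, with 8 higher and 10 lower on both arrays, 0 called, and a median of -0.07. The 4 widest differences were 1.04 for Hmga2, a chromatin protein gene that let-7 represses, 0.86 for Ptgs2, 0.66 for Cd44 and 0.58 for Myc. For Cd44 the difference was 1.09 on KO 4 and 0.23 on KO 22.

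**Figure D5:**
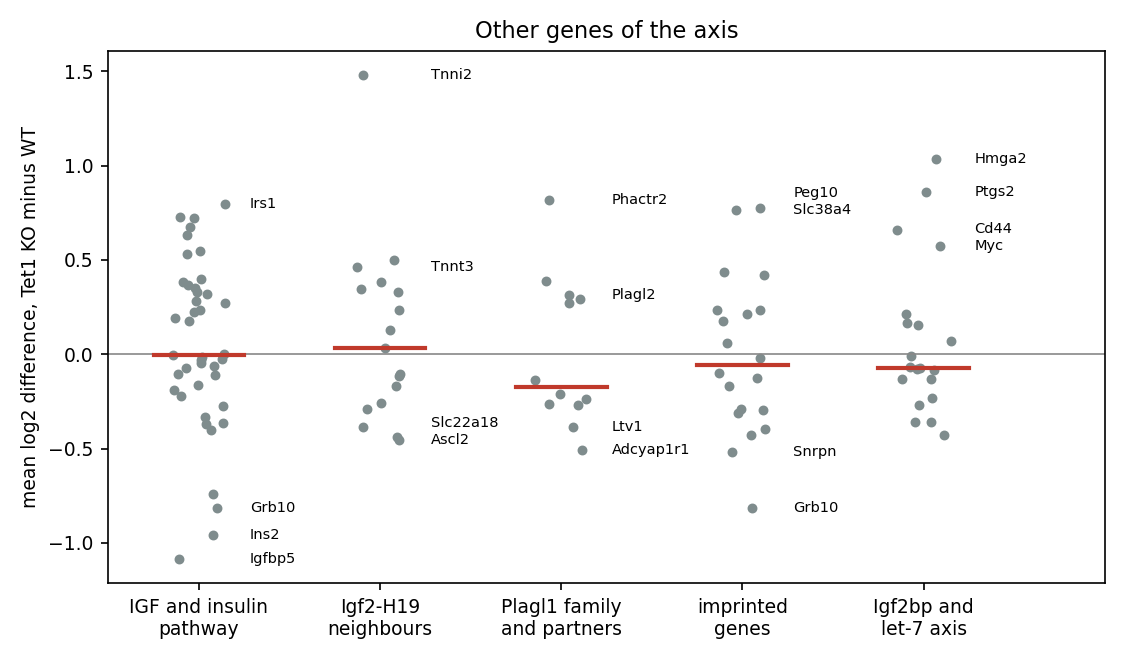
Mean log2 difference, Tet1 KO minus Tet1 WT, of the genes tested in each of the 5 lists (points, spread sideways for legibility), with the list's median as a red bar and the widest differences named. Points lie on both sides of 0 in every list, and the medians run between -0.17 and 0.04.

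Genes whose pair of differences was most like that of Igf2, H19 or Plagl1 were sought among 13358 named genes over the 3 arrays, by the distance between the pairs on the log2 scale. Nearest to Igf2 was Rhox5, an X-linked homeobox gene, at a distance of 0.08, with 47154 on KO 4, 43712 on KO 22 and 8873 on WT. Vnn1, Kirrel, Septin4 and Slc40a1 followed, out to 0.39. Nearest to H19 were Lrrc18 at 0.25, then Nudt12, Oasl2, Ct55 and Cox6a2 at up to 0.45. Each was lower on KO 22 than on KO 4, which the choice by nearness to H19 had already fixed. Nearest to Plagl1 was Cubn, an endocytic receptor of visceral endoderm and kidney, at 0.10, with 49.0 on KO 4, 40.0 on KO 22 and 447 on WT. Srgn, Aqp8, Fkbp6 and Xlr3c followed, out to 0.64.

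Igf2, H19 and Plagl1 are also active in trophoblast, endoderm and fibroblasts, so marker levels are given beside their values. In bulk RNA, fewer cells of a type and less RNA per cell cannot be told apart. Of 9 ES cell markers with a probe, all above background, 3 were higher and 6 lower on both arrays, and their summed level, in multiples of each array's 75th percentile, was 257 on KO 4, 257 on KO 22 and 248 on WT. The brightest, Klf4, read 72410 on KO 4, 64662 on KO 22 and 47372 on WT, and without it the sum was lower on both knockout arrays than on WT. Zfp42 followed, with differences of 0.15 on KO 4 and 0.11 on KO 22. Pou5f1 came next, with -0.46 on KO 4 and -0.47 on KO 22. The 20 trophoblast markers summed to 283 on KO 4, 258 on KO 22 and 188 on WT, with 16 higher and 4 lower on both arrays, although Elf5, Gcm1 and Tpbpa were above background on no array. Over all genes, 38% were higher and 45.5% lower on both arrays. The brightest trophoblast marker was Krt18, with 94048 on KO 4, 76922 on KO 22 and 40731 on WT. Krt8 followed, also higher, with differences of 0.69 on KO 4 and 0.39 on KO 22. Phlda2, the next, was lower, with -0.39 on KO 4 and -0.38 on KO 22. Krt18 and Krt8 made up most of each trophoblast sum, and without them the sums of the arrays were nearly equal.

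The 20 fibroblast markers summed to 72.0 on KO 4, 55.3 on KO 22 and 46.3 on WT, with 8 higher and 2 lower on both arrays and medians of 0.71 on KO 4 and -0.08 on KO 22. Tagln was the brightest, with 19585 on KO 4, 12006 on KO 22 and 5090 on WT. KO 4, the knockout array with more H19, was thus also the one with the higher fibroblast sum, while WT, with the most H19, had the lowest sum. Next in brightness after Tagln, Acta2 differed from wild type by 0.03 (KO 4) and -0.07 (KO 22). Vim differed by 0.09 (KO 4) and -0.09 (KO 22). WT was therefore not lowest for Acta2 or Vim. Without Tagln, the fibroblast sum was highest on KO 4 and lowest on KO 22, with WT between them, so the lowest place of WT rested on Tagln. The 20 visceral endoderm markers summed to 19.8 on KO 4, 19.1 on KO 22 and 20.5 on WT, with 6 higher and 13 lower on both arrays. Their medians were -0.55 on KO 4 and -0.48 on KO 22, and Afp, Apoa1, Apoa4, Apob and Ttr were above background on no array. The brightest, Sparc, Lamb1 and Lrp2, made up most of each sum and were among the 6 higher. They differed from wild type by 0.11, 0.12 and 0.49 on KO 4 and by 0.06, 0.16 and 0.15 on KO 22. Without them the sum was lower on both knockout arrays than on WT. The part of these marker levels in the Igf2, H19 and Plagl1 differences was not tested.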

How the data were processed

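The authors deposited scanner files of 3 Agilent 1-colour arrays, whose processed intensity values were made with Feature Extraction 10.1.1.1 on a design annotated on build mm7, per the file headers. The authors also deposited log2 values for the same arrays (median 5.52 on each, r from 0.991 to 0.993 with the log2 mean intensity), with a normalization that no source used here describes; the submitters' processing notes name limma. Here processed intensities were put on the log2 scale and set relative to the array's 75th percentile, control spots and outlier flags were left out, and spots of a probe were averaged. A gene was represented by its brightest probe and tested if well above background on at least 1 array. Limma 3.58.1 in R 4.3.3 compared KO with WT, with Benjamini-Hochberg adjustment over 17709 genes and a threshold of 0.05, after a check on simulated data. The fit had 1 residual degree of freedom and no block, since all arrays lay on 1 slide, and p-values rest on the spread between the knockout samples alone, which can be technical. The number of arrays limits the precision.

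Current gene names came from RefSeq's GRCm38.p6 table, which matched 32719 of 41174 probes (79.5%), and other probes kept the file's name. No annotation of mm7 was used, so exons and UTRs are not given. The genes of the axis and all lists were chosen with earlier results of these data known. Named genes were all probes of the axis, the 4 widest differences in each list among genes above background on all arrays, the 5 nearest genes of Igf2, H19 and Plagl1, Tet1, and the brightest markers. Not tested for lack of signal were Ins1, Pappa2, Syt8, Th, Zim1 and Airn, and Irs2, Nctc1, Ctcfl, Rtl1 and Trim71 were not matched to a probe.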

Additional observations from a re-analysis of the deposited data

How the results depend on the processing

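Igf2, H19 and Plagl1 kept their directions under all 9 alternatives. Igf2 had 1.96 with normexp on all spots and 2.06 with the 8 spots dimmer than their local background left out of that correction, and 2.14 to 2.29 with either knockout array left out. Plagl1 had -2.66 and -2.77 with these corrections, -3.33 in the deposited log2 values, -2.96 as the mean over its probes, and -3.56 to -3.49 with either knockout array left out. H19 ran between -2.05 and -1.21. Among the other genes, Insr, Igf2bp1, Igf2bp2 and Igf2bp3 changed sign with normexp on all spots only, and Igf2r, at 0.03, with KO 4 left out (-0.01).

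Counts depended on the variance model and the filter. The 63 genes called over the whole table became 3372 with an intensity trend, 13846 with normexp on all spots, 3249 without those 8 spots, 970 in the deposited log2 values, 911 with probes above background on all arrays only, and 0 of 27654 with no filter; the shares also shifted, from 6 higher and 57 lower to 476 higher and 494 lower in the deposited values. Among the other genes of the axis, the 0 calls became 28, 71, 27, 8 and 8 under the first 5 of these. The 8 were the same genes in both, among them Phactr2, Slc38a4 and Tnni2, which were higher, and Grb10, Igfbp5 and Ins2, which were lower. Igf2 joined Plagl1 among the calls in the deposited values and with the stricter filter. Igf2, Igf1r, H19 and Plagl1 were called with the trend, and again without those 8 spots. With normexp on all spots, Igf2, Igf2r and Igf2bp1 were called higher and H19, Insr and Plagl1 lower. No gene of the axis was called with no filter. These calls too stand beside the larger all-gene counts above. Of the other genes of the axis, 108 were tested in the main fit, where 17709 were tested in all. With normexp on all spots, 71 of the 108 were called beside 13846 of the 17709, the larger share. With the trend, without those 8 spots, in the deposited values and with the stricter filter, the share of all genes was the smaller one. No test compared these shares. Genes at least 2-fold apart on both knockout arrays numbered 533, and 5758 with normexp on all spots (104 higher and 5654 lower), 109 without those 8 spots, 289 in the deposited values, 283 with the stricter filter, 906 with no filter, and 811 to 867 with 1 knockout array left out, which asks for the fold on 1 array only. The cause of these changes was not tested. Quantile normalization and the mean over probes kept these counts within 1.5 times.

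No paired analysis was possible because a single wild type array stood against both knockout arrays. Dim probes, those of Insr and the dimmer Igf1r probes among them, are limited by signal over background, and with 1 wild type array no value carries a wild type error.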

Other observations

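Around Plagl1, 9 probes lay within 250 kb and 6 were above background on all arrays. Stx11, a syntaxin gene at -191 kb, read 92.1 on KO 4, 72.9 on KO 22 and 42.6 on WT, a difference of 0.82, and Phactr2, on the other side at 82.4 kb, had 0.82 too. Ltv1, between Plagl1 and Phactr2, had -0.39, and the brighter probe of Sf3b5, a splicing factor subunit gene, had -0.27. No neighbour was at least 2-fold lower on both knockout arrays, as Plagl1 was.

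Near Igf2r, 6 probes lay within 150 kb and 2 were above background on all arrays. The 3 probes of Airn, the non-coding RNA that silences the paternal Igf2r copy in mouse, were above background on no array, with intensities up to 5.69 on KO 4, 3.76 on KO 22 and 2.46 on WT.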
